A study of Mus musculus with 3 samples.

Results

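The wild-type retina of mice at postnatal day 12 was profiled on 1 array, and this array is described here by what it reads as bright, intermediate and near background. The series holds 3 arrays in all, 1 for each of the genotypes labelled wild-type, Otx2 KI and Crx KO, and only the wild-type array was used. Its RNA came from dissected retinas and was labelled with the dye Cy3. The labels give neither the strain, the sex nor the number of mice behind the RNA, and whether the retinas of several mice were pooled is not stated. After control spots and outlier spots were left out, 55680 probes remained. RefSeq accessions named 28331 of them, which stand for 21368 genes.

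The mouse retina is dominated by rods, the photoreceptors of dim light, with cones for daylight and colour as a small minority. Both carry light through the same kind of cascade: an opsin activates transducin, transducin activates a cyclic GMP phosphodiesterase, and cyclic nucleotide-gated channels close as cyclic GMP falls. At this age, close to eye opening, photoreceptors are extending their outer segments, the stacks of disc membrane that hold this cascade, and cell division in the retina has largely ended. Bipolar, horizontal, amacrine and ganglion cells carry and shape the signal, and Muller glia span the whole tissue.

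Signal is the scanner software's processed Cy3 intensity, in its own units after background subtraction, and a gene was represented by its brightest probe. How brightly a probe shines depends on its sequence as well as on the amount of RNA, so each signal is a reading of that probe, and no ratio between genes is drawn from it. Genes were sorted into classes by rule. The bright class holds the brightest 10% of named genes, those at or above a signal of 6116. A gene is near background when none of its probes was marked well above background by the scanner software, and every other gene is intermediate. By construction 10% of named genes were bright (2137 genes), and 23.2% were near background (4948 genes). The median named gene read 255, and the middle 50% of genes lay between 14.9 and 1767. In bulk tissue, fewer cells of a type and less RNA per cell cannot be told apart.

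The array had a wide working range. Signals of non-control spots reached 354474, with 0 saturated spots, and the 308 negative control spots read at most 7.47, with 0 of them well above background. The lowest signal marked well above background was 10.2. Probes printed at about 10 spots varied with a median SD of 0.0640 on the log2 scale (289 such probes well above background), and the scanner software put a median error of 10% of the signal on spots well above background. There is no replicate array, so these errors cover the measurement of 1 RNA preparation and not the spread between mice.

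The rod cascade was read brightly at nearly every step. Of its 18 listed genes 14 were bright, 4 intermediate and 0 near background, and the median member was brighter than 99.0% of named genes. Pde6g, the inhibitory subunit of the rod phosphodiesterase, read 152810 ± 15281 (scanner error, 1 spot). The transducin subunits Gnat1, Gngt1 and Gnb1, which relay the signal from the activated pigment, read 96776, 98263 and 45260.3. All of these lay in the bright class, and their scanner errors were close to 10% of the signal.

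The catalytic phosphodiesterase subunits Pde6a and Pde6b read 40311 and 13234, and the rod channel subunit Cnga1 read 46167. Its partner Cngb1 has 3 probes, which read 83307, 13448 and 656. Among the genes that end the response, Sag (rod arrestin) read 78941, Rcvrn (recoverin, a calcium sensor that restrains the kinase of the response) 105046, and the kinase Grk1 19190.1 and 1147 on its pair of probes. The intermediate members were Rgs9 at 1163, which speeds transducin shut-off, its anchor Rgs9bp at 4311 and, on its other probe, 52.8, the sodium-calcium exchanger Slc24a1 at 3696 and the potassium channel Kcnj14 at 3662. The rod cascade was bright from transducin to channel, and the members outside the bright class were a shut-off factor with its anchor, the exchanger and a potassium channel.

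Cone genes were also mostly bright, although cones are few. The list held 8 bright, 4 intermediate and 0 near-background genes among 12, with a median member brighter than 93.5% of named genes. The cone transducin subunits Gngt2, Gnb3 and Gnat2 read 26795, 18902 and 11578, the phosphodiesterase subunits Pde6h and Pde6c 25576 and 11428, and the cone arrestin Arr3 7930.1. The second probes of Pde6c and Arr3 read 1868 and 4401, below the bright threshold, and that of Pde6h 15628. Opn1mw, the medium-wavelength opsin, read 7242 and 2149 on its probes. Opn1sw, the short-wavelength opsin, read 207 ± 20.9, below the median named gene but well above background, on its single probe. The cone channel subunits Cnga3 and Cngb3 read 1018 and 697, both intermediate.

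**Figure D1:**
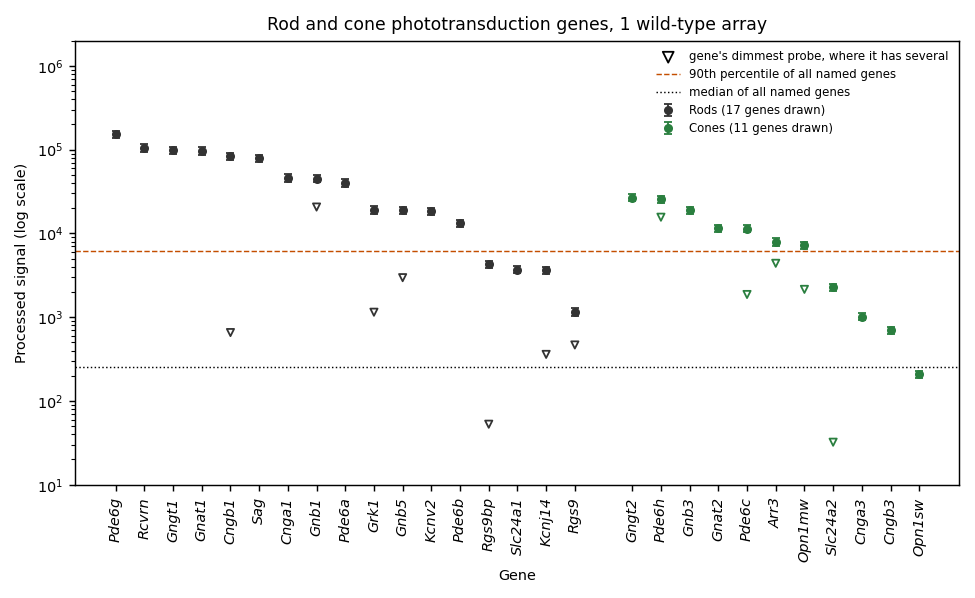
Processed signal (log scale) of 17 rod and 11 cone phototransduction genes on the wild-type array. Circles are the gene's brightest probe with the scanner software's error as bars, open triangles the dimmest probe of genes with several probes, and lines mark the 90th percentile and the median of all named genes. Of the rod genes drawn 13 and of the cone genes drawn 7 lie above the 90th percentile, and Opn1sw is the 1 gene whose brightest probe lies below the median.

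Guanylate cyclases refill cyclic GMP after light, and their calcium-sensing activators tell them when. The cyclases Gucy2e and Gucy2f were intermediate at 289 and 545, while the activator Guca1b was bright at 23223 and Guca1a lay just below the bright class at 5931. The calmodulin genes Calm2 and Calm3, which are used in every cell, read 48863 and 12814. In this group 4 of 9 were bright.

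The outer segment list, which also takes in transducin-binding and matrix proteins, held some of the brightest readings in the array. Rom1 and Prph2, the paired tetraspanins of the disc rim, read 198681 ± 19868 and 180326 ± 18033, and the second Prph2 probe read 131295. Unc119, which carries lipid-anchored transducin, read 151841, and Pdc (phosducin, which binds transducin beta-gamma) 138004. The retinoid carrier of the matrix around the photoreceptors, Rbp3, read 68018. In all 12 of 20 measured members were bright and 0 near background. At the low end were C1qtnf5 at 317, Fscn2, an actin-bundling protein, at 1088 and the matrix proteoglycan Impg1 at 1188. Over the rod, cone, cyclase and outer segment lists together 38 of 59 measured genes were bright, or 64.4%, beside 10% of all named genes. Eys was listed and could not be matched by name.

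Promoter sequences are shown for photoreceptor genes because some of them hold a short motif that Crx and Otx2, the homeodomain activators of these genes, are known to bind. The 250 bases before the start were taken from RefSeq on GRCm38.p6, where 40 of the 60 listed photoreceptor genes had an entry. The motif searched was TAATCC on either strand (GGATTA on the other), and it is set in capitals. Printed are 4 genes of the bright class that hold it, with high readings, and the 1 cone gene that does, Gnat2.
Gngt1: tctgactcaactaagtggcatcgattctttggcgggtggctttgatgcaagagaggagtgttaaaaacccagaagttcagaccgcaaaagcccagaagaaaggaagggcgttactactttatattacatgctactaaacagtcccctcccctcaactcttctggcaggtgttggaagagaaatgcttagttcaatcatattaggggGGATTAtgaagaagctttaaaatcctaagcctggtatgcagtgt
Cngb1: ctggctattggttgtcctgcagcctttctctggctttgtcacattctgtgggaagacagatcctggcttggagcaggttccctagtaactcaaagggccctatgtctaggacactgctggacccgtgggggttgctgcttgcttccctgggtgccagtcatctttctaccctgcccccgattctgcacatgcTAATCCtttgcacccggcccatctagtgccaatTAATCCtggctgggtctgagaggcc
Sag: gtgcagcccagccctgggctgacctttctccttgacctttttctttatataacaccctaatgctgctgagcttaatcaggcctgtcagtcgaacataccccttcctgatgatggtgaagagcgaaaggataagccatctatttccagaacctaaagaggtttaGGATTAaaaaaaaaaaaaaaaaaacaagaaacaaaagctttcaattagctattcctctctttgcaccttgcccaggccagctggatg
Rbp3: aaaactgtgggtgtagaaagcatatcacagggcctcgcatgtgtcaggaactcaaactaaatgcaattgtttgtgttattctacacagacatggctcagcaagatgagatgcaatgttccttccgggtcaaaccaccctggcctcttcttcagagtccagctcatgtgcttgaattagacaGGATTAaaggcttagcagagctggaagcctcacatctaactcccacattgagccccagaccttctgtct
Gnat2: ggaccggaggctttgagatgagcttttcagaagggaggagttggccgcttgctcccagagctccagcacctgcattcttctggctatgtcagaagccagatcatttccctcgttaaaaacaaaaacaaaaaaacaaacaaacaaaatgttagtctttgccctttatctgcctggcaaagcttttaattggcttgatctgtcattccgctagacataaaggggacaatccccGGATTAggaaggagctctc
These windows lie at chr6:3993758-3994007 (plus strand) for Gngt1, chr8:95306586-95306835 (minus strand) for Cngb1, chr1:87803430-87803679 (plus strand) for Sag, chr14:33953753-33954002 (plus strand) for Rbp3 and chr3:108092816-108093065 (plus strand) for Gnat2. Cngb1 holds the motif 2 times and the others 1 time each. The copy nearest the start begins 19 bases before it in Gnat2, 25 in Cngb1, 44 in Gngt1, 69 in Rbp3 and 87 in Sag.

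Across the photoreceptor genes with an entry, 13 of 40 promoters (32.5%) held the motif, beside 6.38% of all 27025 promoters of this length. For the rod list alone it was 5 of 10, for photoreceptor regulators 5 of 17, and for cytosolic ribosomal proteins 3 of 71. In the bright class as a whole the share was 5.96% of 1727 promoters, against 5.50% for intermediate and 7.26% for near-background genes. These shares are descriptions with no test, and a match is not evidence of binding.

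Base composition was described in the same windows. The median ratio of observed to expected CpG, a measure of CpG islands, was 0.763 for bright, 0.657 for intermediate and 0.181 for near-background genes. It was 0.823 for ribosomal protein genes and 0.295 for the photoreceptor lists, below the bright and intermediate classes and above the near-background class. These are descriptions, and no difference between the groups was tested. The letters TATAAA, on either strand, were found in 7 of 40 photoreceptor promoters (17.5%), of which 4 were among the 10 of the rod list, in 7.30% of bright and 23.8% of near-background promoters, and in 13.0% of all promoters in the table. Of the 913 olfactory receptor promoters 39.0% held them.

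**Figure D2:**
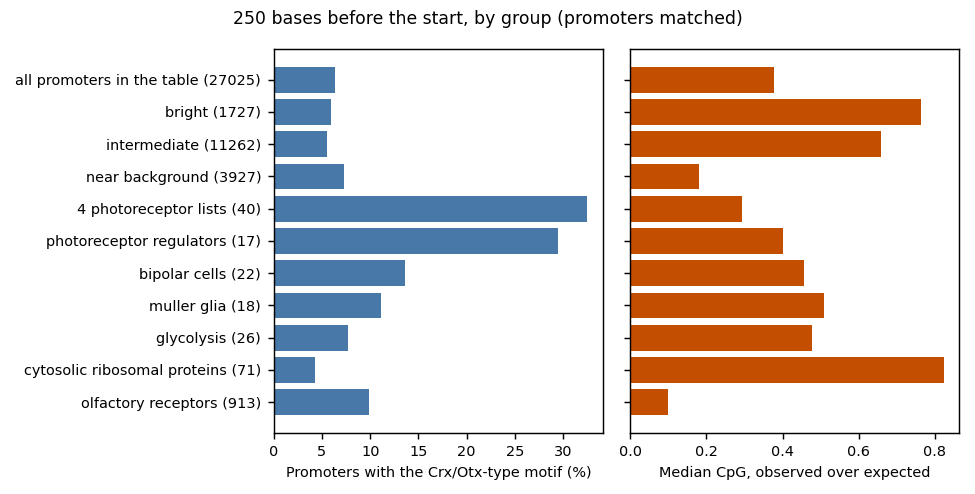
Left, share (%) of promoters with the Crx/Otx-type motif in the 250 bases before the start, and right, the median ratio of observed to expected CpG, for the groups named, with the number of promoters matched in brackets. The photoreceptor lists stand at 32.5% for the motif and at a CpG ratio of 0.295, while all bright genes stand at 5.96% and 0.763.

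The transcription regulators of photoreceptors were bright or intermediate. Nrl, which commits cells to the rod fate, read 145234 and 141949 on its pair of probes. Otx2 and Crx read 40887 and 9790.3, the rod nuclear receptor Nr2e3 36874, and Esrrb, a nuclear receptor of rods, 22125. Of 19 such genes 9 were bright and 0 near background. Thrb and Rxrg, nuclear receptors of cones, were intermediate at 1285 and 4755. Onecut1, Mef2c and Sall3 had the lowest readings of the list, at 33.1, 36.7 and 61.3.

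Ciliary genes, needed for transport into the outer segment, were mostly intermediate: 7 of 22 were bright and 0 near background. Rpgrip1, which anchors RPGR in the connecting cilium, read 52093 and 48385, and the Bardet-Biedl genes Bbs1, Bbs4 and Bbs7 7834, 6765 and 6370.1. Cep290, Ift140 and Rp2 read 941, 47.4 and 86.9. Synapse genes spread over the same range, with 8 bright of 22. Syt1, the calcium sensor of vesicle release, read 51001, Ctbp2, whose locus encodes the ribbon protein, 14799, and Cacna1f, the photoreceptor calcium channel, 4289.9. Elfn1, an adhesion protein that recruits the bipolar cell glutamate receptor, was the 1 synapse gene near background, at 10.8.

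The visual cycle, which regenerates 11-cis retinal, is shared between photoreceptors, Muller glia and the pigment epithelium. Rdh12, a retinol dehydrogenase of photoreceptors, read 16954, Dhrs3 21743 and Rlbp1, the retinal-binding protein of glia and pigment epithelium, 13835. The pigment epithelium enzymes Rpe65 and Lrat read 865 and 73.5, and the photoreceptor enzyme Rdh8 59.5. In this list 5 of 15 were bright and 0 near background.

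Over the bipolar, amacrine, horizontal and ganglion cell lists together 25 of 84 genes were bright (29.8%), beside 10% of all named genes. Near background was 1 of the 84. Of 27 bipolar genes 9 were bright and 0 near background. Pcp2, a marker of rod bipolar cells, read 39728, and the glutamate receptor of ON-bipolar cells, Grm6, 17735. The channel that Grm6 controls, Trpm1, read 6701, 2037 and 544 on its probes. The leucine-rich repeat protein Lrit3 read 114, the lowest of the list. Among 26 amacrine genes 4 were bright. The glycine transporter Slc6a9 read 30672 and the factor Tfap2b 13105. Slc32a1, which loads inhibitory transmitter into vesicles, was bright on 1 probe at 34098, with the other probe at 327. Genes of small amacrine subtypes were intermediate, with Chat of starburst cells at 375 and Th of dopaminergic cells at 1349.7. Ptf1a, a factor of newborn amacrine and horizontal cells, was near background at 4.56.

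The list for ganglion cells, among the rarer neurons, held 9 bright genes of 20, and bulk tissue does not show which cells a reading comes from. The neurofilament Nefl read 27281, Thy1 24604, the microtubule regulator Stmn2 16039 and Sncg 10934. The ganglion cell factors Pou4f1, Pou4f2 and Pou4f3 read 2887, 1262 and 110.3, and melanopsin (Opn4), found in a few light-sensing ganglion cells, 103, all intermediate. Horizontal cell genes had 3 bright of 11. Those were Ndrg1 at 41945, Tpm3 and Septin4, which other cells also express. Tpm3 read 16965, 890 and 220 on its probes, and Septin4 12060 and 4314. The defining genes Lhx1, Calb1 and Gja10 read 115, 97.6 and 19.1.

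Muller glia were also read brightly, with 13 of 26 genes bright and 0 near background. Glul, the enzyme that recycles glutamate to glutamine, read 32325, Apoe 37277, Clu (clusterin) 38443 and Crym 28713. The water channel Aqp4 and potassium channel Kcnj10 of the Muller end foot read 1365 and 3041, and the glial regulators Sox9, Sox2 and Hes1 676, 442 and 223. Sparc had 3 probes that read 137353, 8895 and 257. Genes of astrocytes and of reactive glia were not bright (0 of 14). Gfap read 348, 216 and 14 on its probes, Lcn2 283 and Serpina3n 13.9.

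Microglial genes were mostly intermediate, with 2 of 20 near background. The receptor genes Csf1r and Cx3cr1 read 4049 and 1329 on their brightest probes, and the complement genes C1qa, C1qb and C1qc 364, 367 and 553. P2ry12 and Tmem119, markers of resident microglia, read 163 and 80.8. Both members counted as bright, Siglech and Itgam, rested on 1 probe: Siglech read 104236 and 109.7, and Itgam 16837, 64.9 and 31.1. With a gene taken at the median of its probes, 0 microglial genes were bright. In vessels, the glucose transporter Slc2a1, also used by neurons, read 14498, the endothelial receptor Kdr 8803 and the pericyte gene Rgs5 1616, with 3 bright and 0 near-background genes among 22.

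Of the tissues next to the retina, the lens, cornea, muscle and ciliary body lists gave low readings. Together 2 of their 63 measured genes were bright (3.17%), beside 10% of all named genes, and 16 (25.4%) were near background. The rest were still well above background. Pigment cell genes read higher, with 3 bright members of 16 (18.8%), the protease Ctsd, the keratin Krt18 and Dct. Near background was 1 of the 16 (6.25%). The melanin-pathway gene Dct read 10662, the melanosome protein Pmel 1943, Tyrp1 1009.6 and tyrosinase (Tyr) 111 on its brighter probe. Best1, a chloride channel of the pigment epithelium, was near background at 2.33. The thyroid hormone and retinol carrier Ttr, counted in the visual cycle list, was bright at 7486. Lens genes were mostly low: 0 of 24 were bright, and their median member was brighter than 33.4% of named genes. Near background were 5 of them (20.8%), beside 23.2% of all named genes. Cryab, a small heat shock protein found beyond the lens, read 4539, Crybb3 243, Crygc 116 and Cryaa 106 with its other probe at 2.52. The lens fibre membrane gene Mip read 5.91 and was not well above background.

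Cornea, muscle and connective tissue gave 1 and 0 bright genes of 13 and 17. The bright one was Tkt, a transketolase of general metabolism. The corneal keratin Krt12 read 58.5, the skeletal muscle genes Ckm and Myh4 were near background at 2.43 and 2.17, and the collagen genes Col1a1, Col1a2 and Col3a1 read 71.4, 1318 and 135. Of 9 ciliary body and iris genes 1 was bright, Col9a1, on 1 probe at 7683 with the other at 21.4. Globin genes of red blood cells were read clearly, with Hba-a2 at 35536, Hba-a1 at 9924 and Hbb-bt at 6579, while the embryonic globins Hba-x and Hbb-y were near background and Hbb-bh1, a further embryonic form, read 33.3. The alpha globin copies are near-identical, as are the beta copies, so the split between copies is uncertain.

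Oligodendrocytes are not found in the normal mouse retina, and their defining genes split. Olig1, Olig2 and Opalin were near background at 2.27, 6.41 and 2.24, Mobp read 16.5 and Mag 59.1. Ermn and Mbp were brighter on 1 probe, and their probes lay far apart: Ermn read 13851 and 322, and Mbp 3824, 83.8 and 20.8. Taken at the median of their probes, 0 of 12 genes were bright.

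Genes of organs far from the eye were read low. Over liver, pancreas and gut, and germ cell lists, 0 of 43 were bright and 18 (41.9%) were near background, beside 23.2% of all named genes. By list this was 9 of 15 for liver (60%), 4 of 14 for pancreas and gut (28.6%) and 5 of 14 for germ cells (35.7%). Alb, the main plasma protein made by liver, read 2.70, the digestive enzyme Prss2 2.12 and the sperm chromatin protein Prm1 2.51. The highest reading of these lists was 4881, on Apoa2, an apolipoprotein. A signal marked well above background can be very low: the median member of these lists read 16.6, against a lowest marked signal of 10.2.

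**Figure D3:**
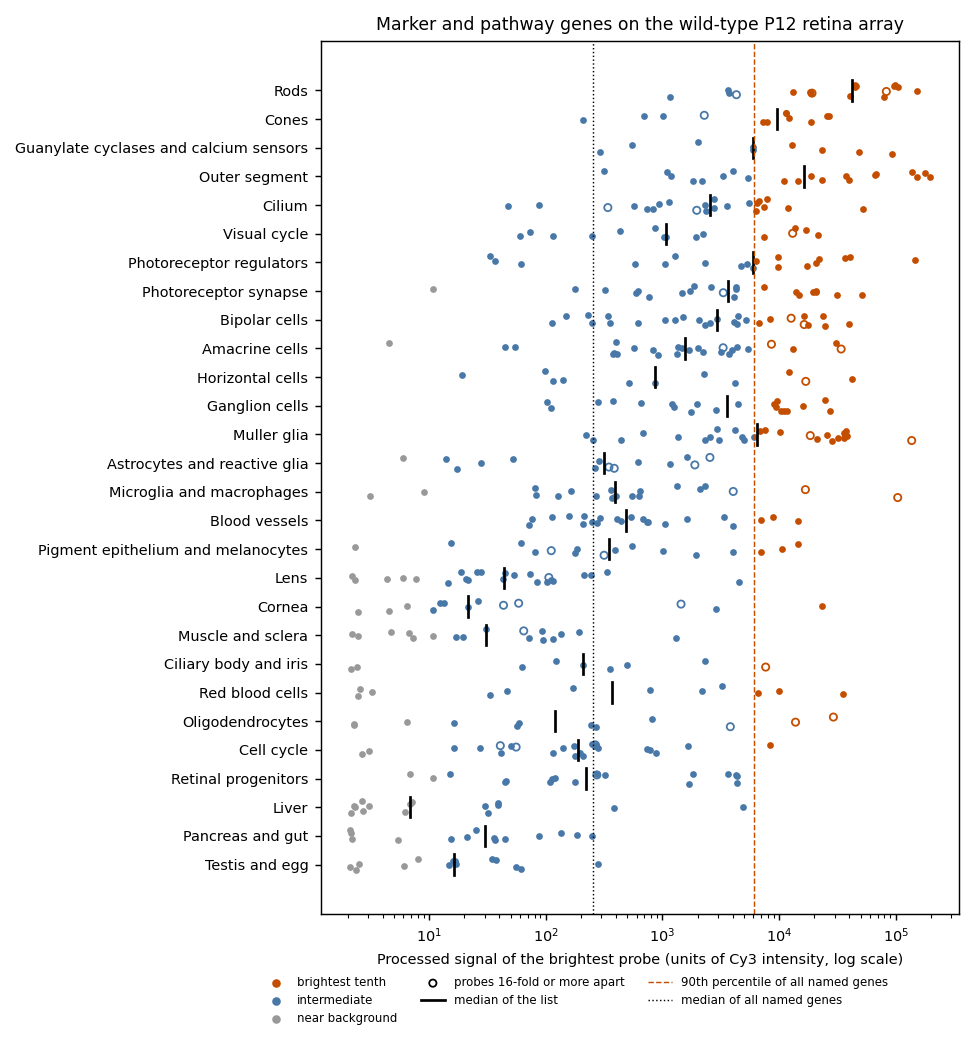
Processed signal (log scale) of the members of 28 marker and pathway lists on the wild-type array, 1 point per gene at its brightest probe. Colour gives the class, open circles mark genes whose probes lay 16-fold or more apart, and black bars are list medians. Rod genes have a median of 42479.9 and lens genes of 44.2, and the bright microglial and oligodendrocyte points are open.

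Beyond cell types, the machinery of energy supply was bright. The retina is known for making lactate from glucose even with oxygen present. Of 29 glycolysis and lactate genes 14 were bright and 3 near background, and isoforms of 1 enzyme fell into different classes. Gapdh read 200009 on the brightest of 7 probes and 16425 on the dimmest, and all 7 lay in the bright range. Aldoa and Aldoc read 182297 and 72479. The enolases Eno1 and Eno2 read 110769 and 18855, and pyruvate kinase Pkm 39157. Pklr, the liver and red cell form, read 28.7. Ldha, which makes lactate, read 181978, 25356 and 6059 on its probes and Ldhb 14138, while the testis forms Ldhc, Pgk2 and Gapdhs read 30.4, 6.11 and 10.4. Hexokinase 1 read 36649 and 2517, and hexokinase 2, an isoform linked to photoreceptor glycolysis, 1231. Of the lactate transporters, Slc16a3 read 4146 and Slc16a1 66.4.

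Whole gene families fell at either end of the range. Of the ATP synthase genes 17 of 17 were bright, led by Atp5b at 106242. So were 81 of 94 cytosolic ribosomal protein genes, with Rps14 at 156214 and Rpl9 at 114537, 30 of 46 complex I genes and 10 of 18 cytochrome c oxidase genes, with Cox6a1 at 146132 and Cox8a at 99772. Tubulins (9 of 18 bright), proteasome subunits (20 of 40) and G protein subunits (14 of 34) were the next families by share. Tuba1b and Tuba1a read 133982 and 124489. Of the mitochondrial ribosomal protein genes 25 of 78 (32.1%) were bright, beside 10% of all named genes.

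Channel and receptor families of neurons were mostly intermediate. Of the potassium channel genes 6 of 98 were bright, and the highest reading was that of Kcnv2, a modulatory subunit found in photoreceptors, at 18549. Grm6 was the 1 bright gene of 8 metabotropic glutamate receptors. The 19 genes with ionotropic glutamate receptor names included 0 near background. The 1 bright gene among them was Grina at 13864, a receptor-associated protein by name and not a channel subunit, and the subunits with the highest readings were Gria4 at 3369 and Grik5 at 2165. Gabrr1, a GABA receptor subunit of bipolar cells, read 5349.6 and headed 19 GABA receptor genes, none of which was bright. Of the nicotinic receptors 6 of 16 were near background, and Chrna6, a subunit found in ganglion cells, was the bright one at 9093. Zinc finger genes named Zfp were rarely near background (13 of 373) and rarely bright (19).

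Receptor families of smell and taste lay largely near background. Of 1075 olfactory receptor genes 904 (84.1%) were near background, as were 210 of 256 vomeronasal receptors, 31 of 38 taste receptors and 50 of 59 defensins. Hox genes, which pattern the trunk and hindbrain, were near background in 37 of 42 cases, and their highest reading was 48.1 on the antisense gene Hoxa11os. Pax6, the eye regulator, read 2020.1 among Pax genes of which 4 of 9 were near background. A few receptors read higher. Olfr544 read 2725, Olfr1466 2483 and the taste receptor Tas2r109 1111, each on 1 probe. Keratins (45.3%), claudins (50%), cytochromes P450 (46.9%) and interleukins (60.6%) also had larger near-background shares than all named genes.

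**Figure D4:**
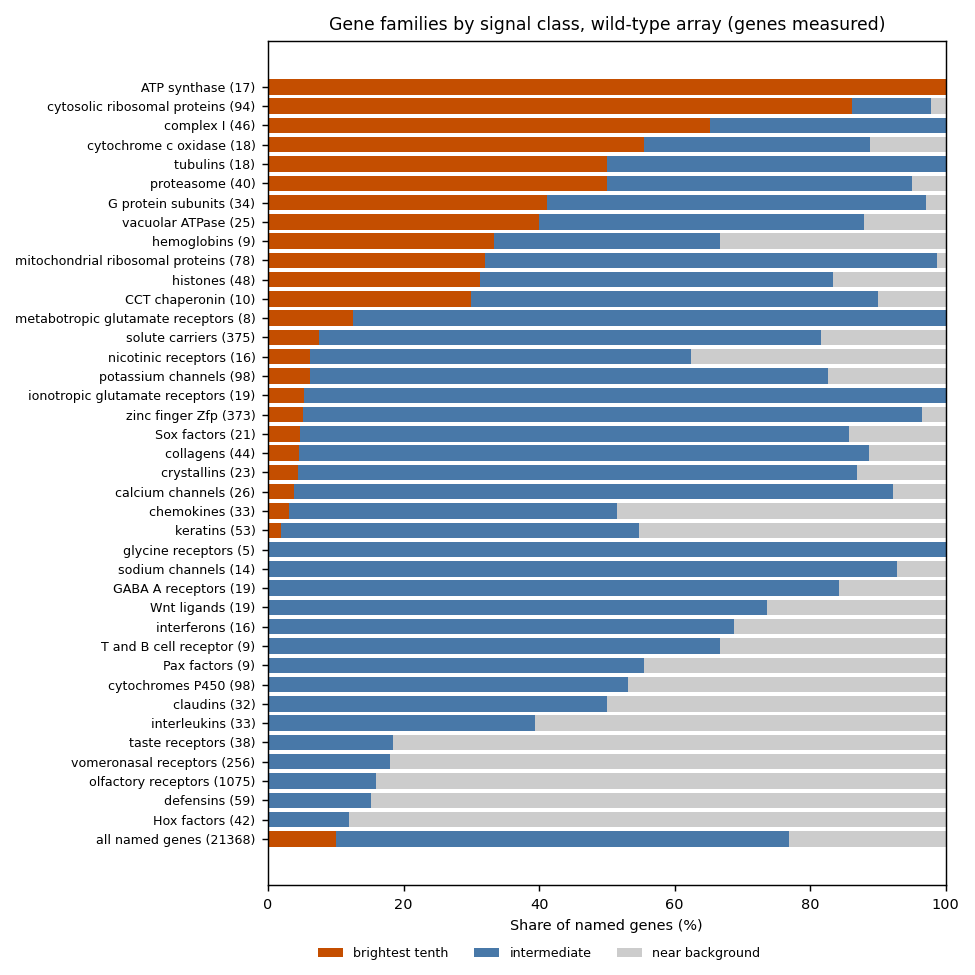
Share (%) of genes in the bright class, intermediate and near background for 39 gene families and for all named genes on the wild-type array, with the number of genes measured in brackets. All 17 ATP synthase genes are bright, while 84.1% of olfactory receptors and 88.1% of Hox genes are near background.

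The very top of the ranking held genes whose probes disagreed. The 12 nameable genes with the highest readings included Glrx2 at 354474, Kctd14 at 351163 and Slc10a1, a bile acid transporter of liver, at 303700. The other Slc10a1 probe read 2.36 and was not well above background, and the dimmest probes of Glrx2 and Kctd14 read 386 and 107. Of the 30 genes that lead the ranking, 18 had 2 or more probes, and in 13 of these the probes lay at least 16-fold apart. Among them only Prph2 had probes within 2-fold. The other 12 of the 30 rested on 1 probe each, with no second probe to compare. These were Rn4.5s, Exosc2, Rom1, Aldoa, Ppia, Hccs, Rps14, Zfp408, Pde6g, Endov, Unc119 and Gla. Gapdh, with probes 12.2-fold apart, had all of them in the bright range.

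Disagreement between probes was common across the array. Of 5754 genes with 2 or more probes, 1515 (26.3%) had probes 16-fold or more apart, and 1452 (25.2%) had probes within 2-fold. The median gene's brightest probe was 5.12-fold above its dimmest, a spread far wider than the median spot SD of 0.0640 on the log2 scale. In the bright class 368 of 904 such genes (40.7%) were 16-fold or more apart. A further 1233 of 2137 bright genes rested on 1 probe, so no second probe was available to compare. Taking the brightest probe favours genes with discordant probes by construction. Of the 38 bright photoreceptor genes 17 had 2 or more probes, and in 2 of these, Cngb1 and Grk1, the probes lay that far apart.

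**Figure D5:**
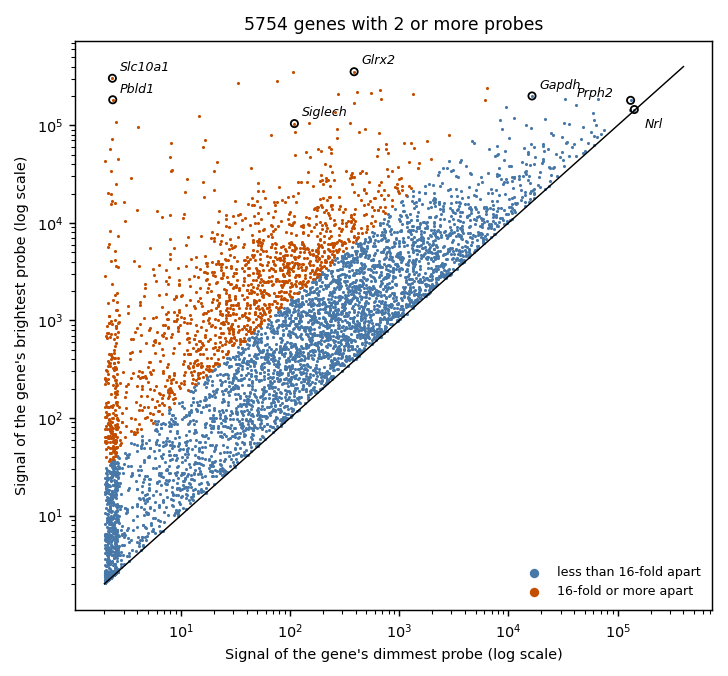
Signal of the brightest against the dimmest probe (both log scales, processed signal) for the 5754 genes with 2 or more probes on the wild-type array, with the line of equality. Points in orange, 1515 genes, have probes 16-fold or more apart, Slc10a1 and Pbld1 among them, while Nrl and Prph2 lie near the line.

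Coding and non-coding genes were read differently. Of 19888 protein-coding genes 10.5% were bright and 21.2% near background, and of 1246 long non-coding RNA genes 1.20% and 51.1%. The bright threshold itself has no gap at it. Ric8b at 6119, Tmem215 at 6122 and Sra1 at 6122 lay just inside, and Ccdc177 at 6115, Malsu1 at 6115 and Scamp5 at 6114 just outside, all closer together than the scanner error. The 5 genes nearest the median of all named genes were Zfp114, Smok3b, Ints8, Sdf2l1 and Cracdl, each at 255.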

How the data were processed

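Total RNA from wild-type retina at postnatal day 12 was hybridised to 1 Agilent 1-colour array (design 028005, annotated against mm9 per the file headers). The authors' deposited scanner file holds intensity values per spot, background-subtracted and spatially detrended, with low spots set to a surrogate, by Agilent Feature Extraction 12.0.3.1 per the file headers. The authors' deposited value table held the same intensity multiplied by a near-constant factor (median 2.49, range 2.46 to 2.51, column median 129.8), so its scale is linear and genes were not centred. The reason for the factor is unknown. The mutant arrays were not used.

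Of 59305 non-control spots 136 outlier spots were left out, and spots of a probe were averaged on the log2 scale. Accessions were matched without versions to RefSeq genes of GRCm38.p6, which named 50.9% of 55680 probes. A gene took its brightest probe. Signals were ranked over the 21368 named genes, with no scaling, since 1 array needs none. With 1 array there is no replicate check, no test and no p-value, and the number of arrays limits the precision.

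The 33 gene lists (607 genes, 601 matched) and 39 families, and the array itself, were chosen with earlier results of these data known. Genes named are the 30 with the highest readings, the brightest, middle and dimmest members of lists and families, neighbours of the thresholds and genes with the widest probe spread. The text prints some of these, and list members outside that rule were named after their values were seen. A spread of 16-fold between probes was chosen as a mark of disagreement after seeing the data. Clone and predicted-model names (1931 genes) were ranked but not named. Some list members enter the counts and are not reported here by name. Promoters used the first entry of each gene. Python 3.11.15, pandas 2.3.3, numpy 2.4.6 and limma 3.58.1 (normexp, offset 50) were used, and the class rule was tested on simulated data.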

Additional observations from a re-analysis of the deposited data

Results flagged for a closer look

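Signal was also found on probes that the gene names do not cover. Of 27349 probes with no match to a RefSeq gene, 14867 (54.4%) were well above background, where 0 of 308 negative control spots were. On 1163 of them (4.25%) the signal reached the range of the bright class, beside 8.68% of named probes. Probes for Ensembl transcripts did so in 14.8% of 2957 cases, probes listed by their own name only in 11.5% of 2462, and probes for genome intervals in 0.593% of 16193. The highest reading among unnamed probes was 319423, on probe A_55_P2100241. These data lie outside the comparisons above, which is why they are singled out, and the bright class described there therefore leaves out part of what the array reads as bright.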

How the results depend on the processing

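The 38 bright photoreceptor genes stayed between 35 and 39 under every other choice of signal, probe or gene set, and numbered 32 with the brightest 5% and 50 with the brightest 25% of genes. Named genes well above background numbered 16420, and 14905 to 18577 under the alternatives. Genes of other organs near background fell from 18 to 11 when positive and significant against background replaced well above background, a looser rule. That rule also raised all named genes above background from 16420 to 18577 of 21368, so the near-background share fell over all genes too. Otherwise the genes of other organs near background lay at 18 to 20. These counts use the scanner software's marks, so they have no separate value under the other signals ranked. For single lists, 283 of 297 recomputed counts of bright members stayed within 1.5 times. All 14 that moved came from choices of probe: 6 of 33 lists with the dimmest probe, 4 with the median probe and 4 with discordant genes left out. The authors' values, a near-constant multiple of the signal, and the looser background rule could hardly move a count of bright genes. Their unchanged counts therefore say little about steadiness. Counts of members near background were less steady, with 24 of 198 moved: 14 of 33 lists with positive and significant, 9 with the dimmest probe and 1 with the median probe. The single near-background members of the synapse, amacrine and astrocyte lists went to 0 with positive and significant, and with the dimmest probe astrocytes had 3 and amacrine cells 2. Microglial and oligodendrocyte lists each went from 2 bright members to 0, and the ciliary body and iris list from 1 to 0, with the median probe, the dimmest probe or discordant genes left out. The threshold of the bright class was redrawn under each choice, from the signals then ranked. With the dimmest probe no gene's signal can rise, so a gene gained by the bright class entered on a lower threshold. Retinal progenitors then went from 0 bright members to 3 and immediate early genes from 1 to 4. Amacrine cells went from 4 to 2 with discordant genes left out, an alternative chosen after seeing the data. The mean spot signal planned for normexp and for the unsubtracted ranking is not used here, and the median spot signal took its place. No paired analysis was possible because each genotype has 1 array. Near background the scanner error is as large as the signal, so order there has no meaning.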

Other observations

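Cell division genes lay about the middle of the array, with a median member brighter than 46.9% of named genes. Of 24 such genes 1 was bright and 2 were near background (8.33%, beside 23.2% of all named genes). Pcna, the sliding clamp of DNA replication, read 8325, Mcm6 1661, Ccna2 879.9, the proliferation antigen Mki67 179, Cdk1 41.5 and Top2a 27.1. Retinal progenitor genes had a median member brighter than 48.5% of named genes, with 0 of 18 bright and 2 near background (11.1%). The eye field genes Six3, Six6 and Lhx2, which stay on in mature cells, read 4403, 3659.9 and 4372, and the Notch target Hes5 4311. Atoh7, a ganglion cell competence factor, read 15.1, and Fgf15 was near background at 10.9. Among the clock genes the output factors Tef and Dbp were bright at 36242 and 20992 and Cry2 read 13973, while Per2 read 77.7 and Npas2 15.0. The hour of dissection is not in the labels. Immediate early genes, which respond to light and to handling, had 1 bright gene of 23, Jund at 8097. Fos read 482, Egr1 4359.6, Arc 76.8, and Egr3 was near background at 2.59. Of 24 stress and death genes 8 were bright, among them the constitutive chaperones Hspa8 at 119063 and Hsp90ab1 at 47143, while the inducible chaperone Hspa1a read 731 and Hmox1 219.

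Genes of both sex chromosomes were read together. Xist, expressed from the inactive X of females, read 655 ± 65.5 and 328 ± 32.9 on its probes, and the Y-linked genes Eif2s3y and Ddx3y read 1660.0 ± 166 and 686 ± 68.7 (scanner errors, 1 spot each). All lay well above the highest negative control spot, at 7.47. Of 8 Y-linked genes listed 3 were well above background, these and Uty at 53.8, and the other 5, Kdm5d, Usp9y, Sry, Zfy1 and Zfy2, were not, at 2.60 to 8.16. Whether RNA of females and males was pooled is not in the labels and was not tested.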
